A study of Homo sapiens with 6 samples.

Results

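The 10 genes described here encode proteins of the tight junction or of the apical membrane next to it, and they were named one by one: CLDN1, CLDN3, CLDN4, CLDN7, OCLN, MARVELD2, MAL2, F11R, TJP1 and TJP3. They were chosen for what they encode and not by a rule on a measured value, but with earlier results of these data known. All 10 were found among the 50868 genes with values. UM-UC-3 and 5637, which are established human bladder cancer cell lines, were infected with lentivirus carrying a control hairpin (sh-NC) or a hairpin against the long noncoding RNA LNMAT1 (sh-LNMAT1#1 or sh-LNMAT1#2, called hairpins #1 and #2). Cells were selected with puromycin for 2 weeks, so the control cells carry a vector and the selection as well, and UM-UC-3 was grown in DMEM and 5637 in RPMI medium. Poly(A) RNA was sequenced in 6 libraries, 1 for each construct in each line, and the labels name neither separate cultures nor a batch. The knockdown was made to ask which genes change with LNMAT1. Medium and line cannot be told apart.

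Tight junctions seal the space between neighbouring epithelial cells near their apical side. Claudins and the MARVEL-domain proteins occludin and tricellulin span the membrane and form the sealing strands, junctional adhesion molecules join them, and the zonula occludens proteins tie the strands to actin from inside the cell. In the bladder this seal is part of the urothelial barrier that holds urine back, and carcinoma cells that lose epithelial features often lose junction genes too.

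The authors deposited FPKM, the fragments assigned to a gene scaled to its length and to the depth of the library. For most genes the values came out as whole multiples of 1 fragment, which gave depths of 19375000 to 24707000 fragments and the number of fragments behind each value. LNMAT1, listed as LINC01296, had 14.2 FPKM under the control hairpin in UM-UC-3 and 6.20 and 6.70 under hairpins #1 and #2, and the 5637 libraries in the same order had 11.7, 4.70 and 2.14 FPKM. The library labelled 5637 sh-NC stood apart from the other 5637 libraries. Over genes, the median absolute difference of log2(FPKM + 0.5) between it and the UM-UC-3 libraries was 0.148 to 0.361, and between it and the 5637 sh-LNMAT1 libraries it was 0.695 and 0.724. The 0.148 was against UM-UC-3 sh-LNMAT1#1. Between UM-UC-3 libraries the same measure was 0.219 to 0.354, and between the 5637 sh-LNMAT1 libraries it was 0.18. The identity of the library labelled 5637 sh-NC was not tested further. The results that rest on it are named as such, and the comparison of lines leaves it out. The pooled comparison is also given without it, where the difference comes from UM-UC-3 alone.

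The summed level of epithelial and urothelial markers differed along that split, though not every marker did. The 15 markers summed to 742 and 988 FPKM in the 5637 sh-LNMAT1 libraries and to 26.7 to 33.1 FPKM in the other 4. In those 4, EPCAM, CDH1, KRT5 and KRT19 were each at most 0.113 FPKM, while KRT18 was 15.9 to 25.2 FPKM and KRT8 4.36 to 4.90. UPK1A, a uroplakin of the urothelial surface, had the opposite order, at 0 and 0.0485 FPKM in the 5637 sh-LNMAT1 libraries and 0.293 to 0.410 in the other 4. UPK1B was listed at 0 in all 6 libraries, and UPK3A reached at most 0.0371 FPKM. Of the mesenchymal markers, VIM was 3.85 and 4.14 FPKM in the 5637 sh-LNMAT1 libraries and 103 to 332 in the other 4, while FN1 was 110 and 102 FPKM in the former and 0.816 to 2.27 in the latter. Of the leukocyte markers, PTPRC, CD3E and LYZ were at or under 0.0108 FPKM, and CD68 was expressed, at 0.749 to 31.0 FPKM. The 4 endothelial markers summed to at most 0.310 FPKM, and of the fibroblast markers COL1A1 alone passed 1 FPKM, at 7.92 and 6.37 in the 5637 sh-LNMAT1 libraries. The part of these markers in the results below was not tested, and in bulk RNA fewer cells of a type and less RNA per cell cannot be told apart.

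Promoter sequences, which run from 250 bases before an annotated start to 50 after it, were taken from RefSeq (GRCh38.p14) and matched 8 of the 10 genes, all but F11R and MAL2, with 14 entries. Those of CLDN7, CLDN1 and MARVELD2 are shown because these genes separated the 5637 sh-LNMAT1 libraries from the rest, and those of OCLN and TJP1 because these genes were expressed in all 6 libraries. Capitals mark the E-box CACCTG or its complement CAGGTG, the letters recognised by the ZEB and SNAI repressors of epithelial genes. The sequences run 5′ to 3′ along the strand of each gene.
CLDN7, chr17:7262429-7262728, minus strand: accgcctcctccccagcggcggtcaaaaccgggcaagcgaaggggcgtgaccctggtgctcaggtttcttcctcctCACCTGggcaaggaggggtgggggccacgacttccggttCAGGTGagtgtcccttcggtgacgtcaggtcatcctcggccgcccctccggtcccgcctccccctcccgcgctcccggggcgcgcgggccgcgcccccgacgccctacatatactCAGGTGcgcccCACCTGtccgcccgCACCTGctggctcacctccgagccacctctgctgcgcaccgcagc
CLDN1, chr3:190322397-190322696, minus strand: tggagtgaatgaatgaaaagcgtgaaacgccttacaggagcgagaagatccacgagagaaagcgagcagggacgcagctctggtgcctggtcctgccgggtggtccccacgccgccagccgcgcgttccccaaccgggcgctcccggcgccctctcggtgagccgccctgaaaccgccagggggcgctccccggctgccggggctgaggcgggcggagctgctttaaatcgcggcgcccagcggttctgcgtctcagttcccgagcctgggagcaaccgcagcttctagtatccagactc
MARVELD2, chr5:69414866-69415165, plus strand: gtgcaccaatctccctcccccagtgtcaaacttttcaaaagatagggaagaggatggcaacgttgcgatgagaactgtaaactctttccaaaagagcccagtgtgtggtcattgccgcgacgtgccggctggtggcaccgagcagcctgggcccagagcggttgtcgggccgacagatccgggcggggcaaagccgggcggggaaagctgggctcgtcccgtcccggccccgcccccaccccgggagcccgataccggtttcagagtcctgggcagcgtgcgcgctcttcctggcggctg
OCLN, chr5:69492540-69492839, plus strand: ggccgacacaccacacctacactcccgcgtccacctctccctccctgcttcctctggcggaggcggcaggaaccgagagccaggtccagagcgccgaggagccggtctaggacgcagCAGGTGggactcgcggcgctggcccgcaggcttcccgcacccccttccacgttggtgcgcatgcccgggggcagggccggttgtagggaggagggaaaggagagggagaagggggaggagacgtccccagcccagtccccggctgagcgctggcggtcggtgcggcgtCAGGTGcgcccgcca
TJP1, chr15:29969000-29969299, minus strand: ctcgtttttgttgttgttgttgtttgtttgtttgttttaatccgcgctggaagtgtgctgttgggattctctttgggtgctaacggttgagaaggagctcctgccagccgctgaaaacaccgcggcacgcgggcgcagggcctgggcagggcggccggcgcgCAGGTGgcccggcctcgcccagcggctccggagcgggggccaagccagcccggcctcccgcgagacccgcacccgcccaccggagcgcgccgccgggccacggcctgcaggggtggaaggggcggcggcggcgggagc

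This CLDN7 promoter held 5 E-boxes, with first bases at -174, -135, -20, -9 and 6 counted from the start, where the first transcribed base is 1 and no base is 0. At least 1 E-box was present in 20.6% of 35116 RefSeq promoters, and 33 of them (0.094%) held 5 or more. The other annotated CLDN7 start held 0. The OCLN entry shown held 2, the OCLN entry upstream of it 1, and CLDN3 held 1, while CLDN1, MARVELD2 and CLDN4 held 0. TJP1 held 1 in the entry shown and 0 in its 3 others, and TJP3 held 0 and 1. The Grainyhead letters AACCGGTT were in 0 of the 14 entries and in 0.134% of all promoters. A match describes letters and is not a bound site, and both strands were searched.

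The claudins were low in most libraries except CLDN1. CLDN1 (ENSG00000163347, chromosome 3, 190305701 to 190322475 on GRCh38, minus strand) encodes claudin-1, a sealing claudin of epidermis and urothelium. UM-UC-3 cells had 7.91 FPKM under the control hairpin, 17.7 under hairpin #1 and 11.7 under hairpin #2. For 5637, the library labelled sh-NC had 14.0 FPKM, and 5637 had 47.7 under hairpin #1 and 78.5 under hairpin #2. CLDN1 was therefore expressed everywhere, from 748 to 5820 fragments, and highest in the 5637 sh-LNMAT1 libraries.

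CLDN7 (ENSG00000181885, chromosome 17, 7259903 to 7263983, minus strand) encodes claudin-7, which is found along the lateral membrane as well as in the junction. It was read from 2318 fragments in 5637 sh-LNMAT1#1 (17.1 FPKM) and from 1176 in 5637 sh-LNMAT1#2 (9.30 FPKM). On the 5637 side, the library labelled sh-NC held 1 fragment (0.00682 FPKM), and the UM-UC-3 libraries held 7 under the control hairpin and 2 under either hairpin against LNMAT1. CLDN7 was thus read at depth in 2 libraries and at a few fragments in the other 4.

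CLDN3 (ENSG00000165215, chromosome 7, 73768997 to 73770270, minus strand) and CLDN4 (ENSG00000189143, chromosome 7, 73799542 to 73832693, plus strand) lie 29271 bases apart and encode claudins that many carcinomas express together. CLDN3 had 23 and 11 fragments in 5637 sh-LNMAT1#1 and sh-LNMAT1#2, at 0.868 and 0.446 FPKM, and 1 or 2 fragments in each of the other 4 libraries. CLDN4 had the reverse order in 5637, with 53 fragments (0.209 FPKM) where the label is sh-NC, 12 (0.0512 FPKM) under hairpin #1 and 21 (0.0961 FPKM) under hairpin #2. In UM-UC-3, CLDN4 had 22 fragments under the control hairpin, 44 under hairpin #1 and 15 under hairpin #2. Both genes stayed under 1 FPKM in all 6 libraries, and the neighbours did not move together.

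Among the MARVEL-domain genes, OCLN was expressed in every library and the other 2 were not. OCLN (ENSG00000197822, chromosome 5, 69492292 to 69558104, plus strand) encodes occludin, a regulator of the passage of large solutes. UM-UC-3 cells had 2.63 FPKM of it under the control hairpin, 3.30 under hairpin #1 and 3.29 under hairpin #2. The library labelled 5637 sh-NC had 3.17 FPKM, and 5637 had 2.15 under hairpin #1 and 2.31 under hairpin #2. The 5637 sh-LNMAT1 libraries held the lowest OCLN values, in contrast to most of the other genes.

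MARVELD2 (ENSG00000152939, chromosome 5, 69415112 to 69444330, plus strand), which lies 47961 bases from OCLN, encodes tricellulin, the junction protein of the corners where cells meet. It had 324 and 205 fragments in 5637 sh-LNMAT1#1 and sh-LNMAT1#2, at 2.08 and 1.42 FPKM. For 5637, the library labelled sh-NC held 3 fragments, and UM-UC-3 held 5 under the control hairpin and 1 under either hairpin against LNMAT1. The pair of neighbours, OCLN and MARVELD2, thus differed in pattern.

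MAL2 (ENSG00000147676, chromosome 8, 119165034 to 119245673, plus strand) encodes a lipid-raft protein that carries cargo to the apical membrane. It had 6858 fragments in 5637 sh-LNMAT1#1 (85.0 FPKM) and 7742 in 5637 sh-LNMAT1#2 (103 FPKM). On the 5637 side, the library labelled sh-NC held 3, and UM-UC-3 held 2 under the control hairpin, 3 under hairpin #1 and 0 under hairpin #2. At that depth 0 fragments allow a level of up to 0.0337 FPKM, taking 3 fragments as the floor. MAL2 took 41.7% and 41.4% of the summed FPKM of the 10 genes in the 5637 sh-LNMAT1 libraries.

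F11R (ENSG00000158769, chromosome 1, 160995211 to 161021348, minus strand) encodes JAM-A, an immunoglobulin-like adhesion molecule that helps to set up polarity. It was 43.3 FPKM in 5637 sh-LNMAT1#1 and 46.3 in 5637 sh-LNMAT1#2, from 6161 and 6141 fragments. The library labelled 5637 sh-NC had 0.658 FPKM, and UM-UC-3 had 0.621 under the control hairpin, 1.07 under hairpin #1 and 0.522 under hairpin #2. F11R thus had a low but readable level, at least 82 fragments, where MAL2 had 0 to 3. F11R shares 36.6% of its merged exon bases with AL591806.3, a gene annotated on the same strand. AL591806.3 was 6.60 and 1.33 FPKM in the 5637 sh-LNMAT1 libraries and listed at 0 in the other 4, so the level of F11R is uncertain by what was assigned between them.

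The scaffolds differed from each other. TJP1 (ENSG00000104067, chromosome 15, 29699367 to 29968865, minus strand) encodes ZO-1, which binds claudins and actin. UM-UC-3 had 7.64 FPKM under the control hairpin, 5.70 under hairpin #1 and 6.62 under hairpin #2. For 5637, the library labelled sh-NC had 5.33 FPKM, and 5637 had 5.50 under hairpin #1 and 7.23 under hairpin #2. TJP1 values of the lines overlapped. TJP3 (ENSG00000105289, chromosome 19, 3708109 to 3750813, plus strand), which encodes ZO-3, a scaffold largely of epithelial cells, was under 1 FPKM throughout. It had 28 and 18 fragments in 5637 sh-LNMAT1#1 and sh-LNMAT1#2, 6 in the library labelled 5637 sh-NC, and 10, 8 and 15 in UM-UC-3.

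**Figure D1:**
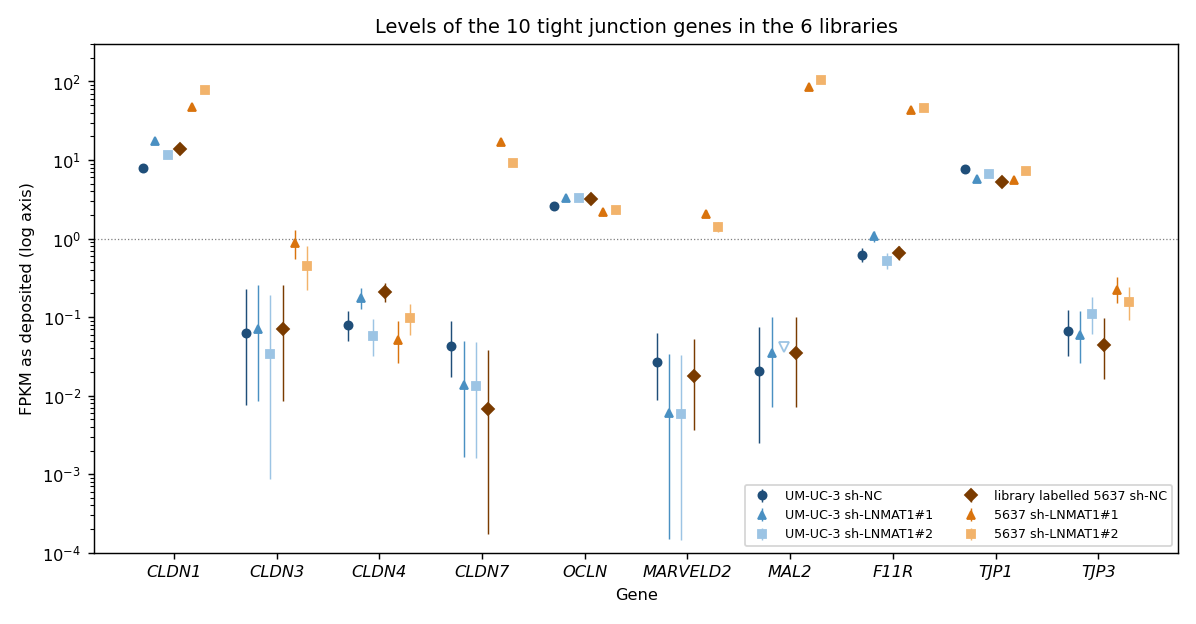
FPKM as deposited of the 10 tight junction genes (log axis) in each of the 6 libraries, with bars for the exact 95% Poisson interval of the fragments, which covers counting error only, and the open triangle for the upper limit of 0 fragments. MAL2, F11R, CLDN7 and MARVELD2 stand above 1 FPKM (dotted line) in both 5637 sh-LNMAT1 libraries, while OCLN and TJP1 lie between 2.15 and 7.64 FPKM in all 6.

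Summed over the 10 genes, UM-UC-3 had 19.1 FPKM under the control hairpin, 28.1 under hairpin #1 and 22.4 under hairpin #2. On the 5637 side, the library labelled sh-NC summed to 23.5 FPKM, and 5637 summed to 204 under hairpin #1 and 249 under hairpin #2. In the former 4 libraries 3 or 4 of the genes reached 1 FPKM, namely CLDN1, OCLN and TJP1 with F11R added under hairpin #1 in UM-UC-3, and 7 did in the latter 2 libraries. CLDN1 made up 41.4% to 62.9% of the sum in the former 4.

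Levels of different genes depend on the length used for each. The deposited FPKM fit whole fragments, within 0.05 of a fragment, in 94.87% to 95.23% of values of genes with several exons when each distinct annotated exon was counted in full, overlaps included, and in 33.83% to 36.16% when overlapping exons were merged. For CLDN7, with 8 annotated transcripts, the summed length was 6529 bases against 2492 merged, 2.62 times as long, and for CLDN4 it was 11275 against 4702, 2.40 times as long. CLDN3, with a single exon, was the same on both scales. On merged exons CLDN7 was 44.7 and 24.4 FPKM in the 5637 sh-LNMAT1 libraries, F11R was 58.5 and 62.6, CLDN1 was 49.8 and 82.0, and MAL2 was 96.1 and 116. F11R thus stood below CLDN1 on the deposited scale in both libraries and above it on merged exons in sh-LNMAT1#1. The merged length was not used for MARVELD2, because its position differs between the files and GENCODE 29. A ratio between libraries for 1 gene does not depend on this length.

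**Figure D2:**
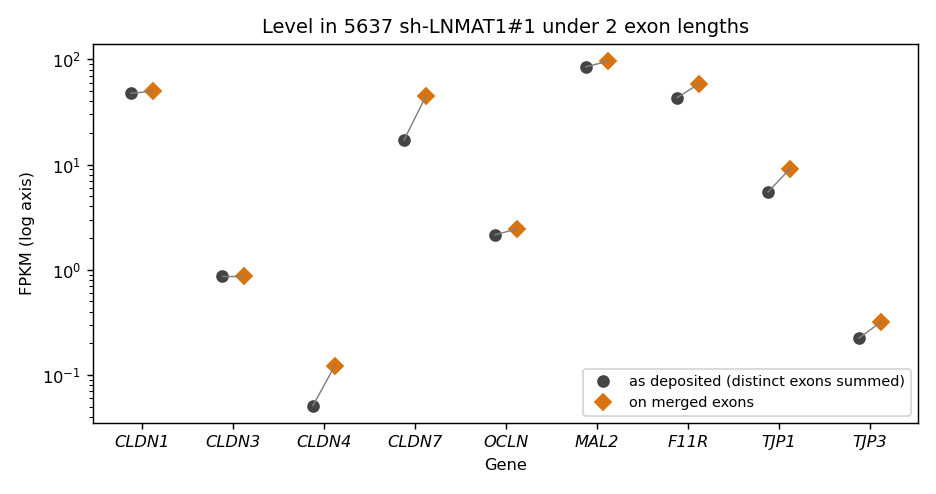
Level of 9 genes in 5637 sh-LNMAT1#1, in FPKM on a log axis, as deposited (circles, every distinct exon summed) and on merged exons (diamonds), joined for each gene. The longest joins are those of CLDN7, from 17.1 to 44.7 FPKM, and CLDN4, from 0.0512 to 0.123 FPKM.

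The hairpins against LNMAT1 moved none of the 3 genes that could be followed in UM-UC-3 past the limit set here. A change had to reach 2-fold on the scale of log2(FPKM + 0.5), up with both hairpins or down with both, and genes averaging under 1 FPKM over the libraries compared were left out. CLDN1, OCLN and TJP1 were kept, and 0 of the 3 changed, beside 1.44% of 12025 genes. CLDN1 was 2.24-fold higher with sh-LNMAT1#1 (95% counting interval 2.05 to 2.45) and 1.48-fold higher with sh-LNMAT1#2 (1.35 to 1.63), log2 changes of 1.11 and 0.54. OCLN changed by 0.28 and 0.28 and TJP1 by -0.39 and -0.19 on the log2 scale. F11R, not kept, had log2 changes of 0.49 and -0.13, opposite in sign. Each construct had 1 library, so the difference of a single hairpin has no replicate check. With both hairpins taken as replicates, limma over the 5 libraries other than the one labelled 5637 sh-NC gave UM-UC-3 changes of 0.83 for CLDN1 (SE 0.41, adjusted p = 0.846), 0.28 for OCLN (SE 0.24, adjusted p = 0.865) and -0.29 for TJP1 (SE 0.28, adjusted p = 0.876). None of the 3 passed.

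In 5637, 5 of the 7 genes kept were at least 2-fold higher with both hairpins than in the library with the sh-NC label, and 0 were lower. Of 12791 genes, 18.5% were higher and 12.3% lower by the same rule. CLDN7, F11R, MAL2 and MARVELD2 were kept only through the sh-LNMAT1 libraries, so a difference follows from the filter for them and the count is no support. CLDN1 was 3.41-fold higher with sh-LNMAT1#1 (3.20 to 3.64) and 5.62-fold higher with sh-LNMAT1#2 (5.28 to 5.98), and F11R was 65.8-fold (54.1 to 80.9) and 70.4-fold (57.8 to 86.6) higher. MAL2, against 3 fragments, was 2466-fold higher with sh-LNMAT1#1 (843 to 11959) and 2989-fold higher with sh-LNMAT1#2 (1022 to 14496). MARVELD2, also against 3, was 116-fold (39.5 to 568) and 79.1-fold (26.7 to 387) higher. The intervals are wide because few fragments stand on the control side.

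CLDN7, against 1 fragment, was 2500-fold (448 to 98796) and 1362-fold (244 to 53839) higher. OCLN had log2 changes of -0.47 and -0.38 and TJP1 of 0.04 and 0.41. Of the 3 genes under the filter, CLDN3 was 12.4-fold (3.07 to 109) and 6.37-fold (1.39 to 59.1) higher, TJP3 was 5.03-fold (2.04 to 14.9) and 3.47-fold (1.32 to 10.7) higher, and CLDN4 was at 0.244 times (0.119 to 0.463) and 0.459 times (0.263 to 0.774) the level. The library labelled 5637 sh-NC was at 1.06 times UM-UC-3 sh-NC (0.798 to 1.41) and 0.615 times UM-UC-3 sh-LNMAT1#1 (0.475 to 0.793) for F11R. For CLDN1 it was at 1.77 times (1.61 to 1.94) and 0.789 times (0.731 to 0.852) the same libraries. All intervals cover counting error only, and whether the library or the hairpins set these changes cannot be told apart.

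**Figure D3:**
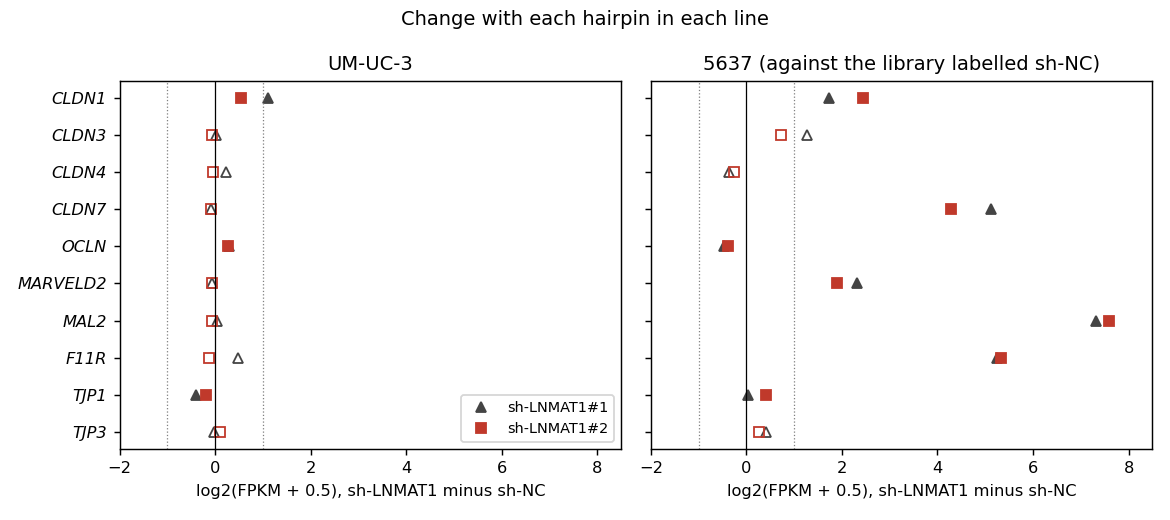
Difference of log2(FPKM + 0.5) between each sh-LNMAT1 library and sh-NC for the 10 genes, in UM-UC-3 (left) and 5637 (right), with filled symbols for genes kept by the filter and dotted lines at 2-fold. In UM-UC-3 the points of 9 genes lie within 2-fold and CLDN1 reaches 1.11, while in 5637 MAL2 lies at 7.32 and 7.60.

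Lines were compared within the sh-LNMAT1 libraries, which leaves out both sh-NC libraries and sets 2 hairpins in 5637 against the same 2 in UM-UC-3. The hairpins of a line stand in for replicates, so the spread includes any hairpin difference. Of 12844 genes, 20.1% were higher and 18.4% lower in 5637 at a Benjamini-Hochberg adjusted p under 0.05 by limma. Of the 6 of the 10 genes that were kept, 4 were higher and 0 lower, and MAL2, F11R and CLDN7 were again kept through the 5637 libraries alone.

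MAL2 differed by 7.51 on the log2(FPKM + 0.5) scale (SE 0.21, 95% interval 6.98 to 8.03, limma adjusted p = 0.000154). F11R differed by 5.16 (SE 0.27, 4.48 to 5.84, limma adjusted p = 0.000240) and CLDN7 by 4.67 (SE 0.32, 3.86 to 5.49, limma adjusted p = 0.000444). These differences understate the change of genes near 0. With the same hairpin, sh-LNMAT1#2, MAL2 in 5637 was at 3057 times the floor of 3 fragments in UM-UC-3. UM-UC-3 held 0 fragments there, and the 95% counting interval of the ratio starts at 2485. CLDN1 was higher by 2.05 (SE 0.33, 1.21 to 2.88, limma adjusted p = 0.00751). The call of CLDN1 was lost without 5637 sh-LNMAT1#1 (limma adjusted p = 0.0522) and without 5637 sh-LNMAT1#2 (limma adjusted p = 0.0942).

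OCLN had a log2 difference of -0.48 (95% interval -0.97 to 0.02, limma adjusted p = 0.112), and TJP1 differed by 0.04 (-0.54 to 0.61, limma adjusted p = 0.912). Neither passed the test, and the interval of TJP1 holds differences of up to 0.61 in size. With no filter, MARVELD2 differed by 2.14 (limma adjusted p = 0.0236), CLDN3 by 1.04 (limma adjusted p = 0.0711), TJP3 by 0.24 and CLDN4 by -0.10. CLDN3, TJP3 and CLDN4 did not pass the threshold.

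The 5637 sh-LNMAT1 libraries differed from each other beyond counting error for some genes, and with 1 library for each hairpin this cannot be read as a difference between hairpins. CLDN1 was 1.65-fold higher with sh-LNMAT1#2 than with sh-LNMAT1#1 (95% counting interval 1.58 to 1.71) and MAL2 was 1.21-fold higher (1.17 to 1.25). CLDN7 was at 0.545 times (0.507 to 0.585) and MARVELD2 at 0.679 times (0.568 to 0.812) the level with sh-LNMAT1#1. F11R was at 1.07 times (1.03 to 1.11) and OCLN at 1.08 times (0.925 to 1.25). With all 6 libraries grouped by their labels and the labelled knockdown as a covariate, 0 of the 6 kept genes were called between lines. MAL2 then differed by 5.02 and CLDN1 by 1.63, both at a limma adjusted p = 0.217. With the 5637 sh-LNMAT1 libraries set against all 3 UM-UC-3 libraries, 4 genes were called. The share of all genes called in either fit is not given here, so neither count is read as a result about these genes.

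Pooled over lines, the sh-LNMAT1 libraries were compared with sh-NC by limma with line as a covariate. Of 12717 genes, 0% passed an adjusted p under 0.05, 811 had an unadjusted p under 0.05, and voom on the recovered fragments called 0 after adjustment and 1206 of 11514 before. Of the 10 genes, 6 were kept, of which 2, CLDN1 and F11R, had an unadjusted p under 0.05 by limma and 4 by voom. CLDN1 was higher by 1.46 (95% interval 0.46 to 2.45, limma adjusted p = 0.569), F11R by 2.73 (0.07 to 5.39, limma adjusted p = 0.569) and MAL2 by 3.72 (-0.09 to 7.54, limma adjusted p = 0.569), with 3 residual degrees of freedom. MAL2, F11R and CLDN7 were kept through the 5637 sh-LNMAT1 libraries alone. Leaving out a control library leaves its line without a control, so the difference then comes from the other line and is not pooled. Without the library labelled 5637 sh-NC it was the UM-UC-3 change, -0.01 for MAL2 and 0.83 for CLDN1. Without UM-UC-3 sh-NC it was the 5637 change, 7.46 and 2.09, which rests on the library labelled 5637 sh-NC.

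The difference between lines in the change with knockdown was fitted as an interaction, which rests on 1 sh-NC library in each line and cannot be fitted without the library labelled 5637 sh-NC. MAL2, F11R and CLDN7 were kept through the 5637 sh-LNMAT1 libraries alone, so a difference follows from the filter for them here too. The interaction passed for 18.8% of 12717 genes. It was 7.47 for MAL2 (95% interval 6.52 to 8.42, limma adjusted p = 0.00285), 5.11 for F11R (3.92 to 6.31, limma adjusted p = 0.00375) and 4.78 for CLDN7 (3.37 to 6.18, limma adjusted p = 0.00603). CLDN7 lost this call when the filter was dropped (limma adjusted p = 0.0566). CLDN1, at 1.26 (-0.18 to 2.71, limma adjusted p = 0.175), did not pass.

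Around these genes, 51 others of the tight junction were listed, and 26 of them were kept in the comparison of lines. In 5637, 11 were higher and 6 lower by limma, beside 20.1% and 18.4% of all genes, and their median difference was 0.17 on the log2 scale against -0.02 over all genes. LSR, the angulin that recruits tricellulin, was higher by 4.55, CRB3 of the Crumbs polarity complex by 2.67 and the adaptor cingulin, CGN, by 2.52. JAM3 (JAM-C) was lower, with a difference of -3.18, as were ARHGEF2, an exchange factor held at junctions (-2.08), YBX3, the ZO-1-bound Y-box protein (-1.27), and the scaffold MAGI3 (-1.08). LSR, CRB3 and CGN averaged under 1 FPKM in UM-UC-3 and JAM3 in 5637, so the filter kept them through 1 line alone. Others among the 11 were kept the same way, so the count is no support. JAM3 and F11R, of 1 family, differed in opposite directions. Each was kept through 1 line alone, so both directions follow from the filter and say nothing of the junction genes as a group. The number called was 5 without 5637 sh-LNMAT1#1 and 6 without 5637 sh-LNMAT1#2.

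JAM3 in UM-UC-3 had 5.02 FPKM under the control hairpin, 5.43 under hairpin #1 and 5.00 under hairpin #2. For 5637, the library labelled sh-NC had 5.76 FPKM, and 5637 had 0.0834 and 0.179 under hairpins #1 and #2. Its levels ran against those of F11R, which was high where JAM3 was low. LSR was 15.2 and 15.01 FPKM in the 5637 sh-LNMAT1 libraries and 0.147 to 0.232 in the other 4. With knockdown, 0 of the 19 kept from this list changed in UM-UC-3 by the 2-fold rule, and in 5637 10 of 26 were higher, LSR, CRB3, CLDN23 and CGN among them, and JAM3 and ARHGEF2 were lower, beside 18.5% and 12.3% of all genes. LSR, CRB3, CLDN23 and CGN were under 1 FPKM in the library labelled 5637 sh-NC. They were kept through the other 5637 libraries, so their difference follows from the filter. Others among the 10 were kept the same way, so the count is no support. JAM3 was in turn kept through the library labelled 5637 sh-NC alone.

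**Figure D4:**
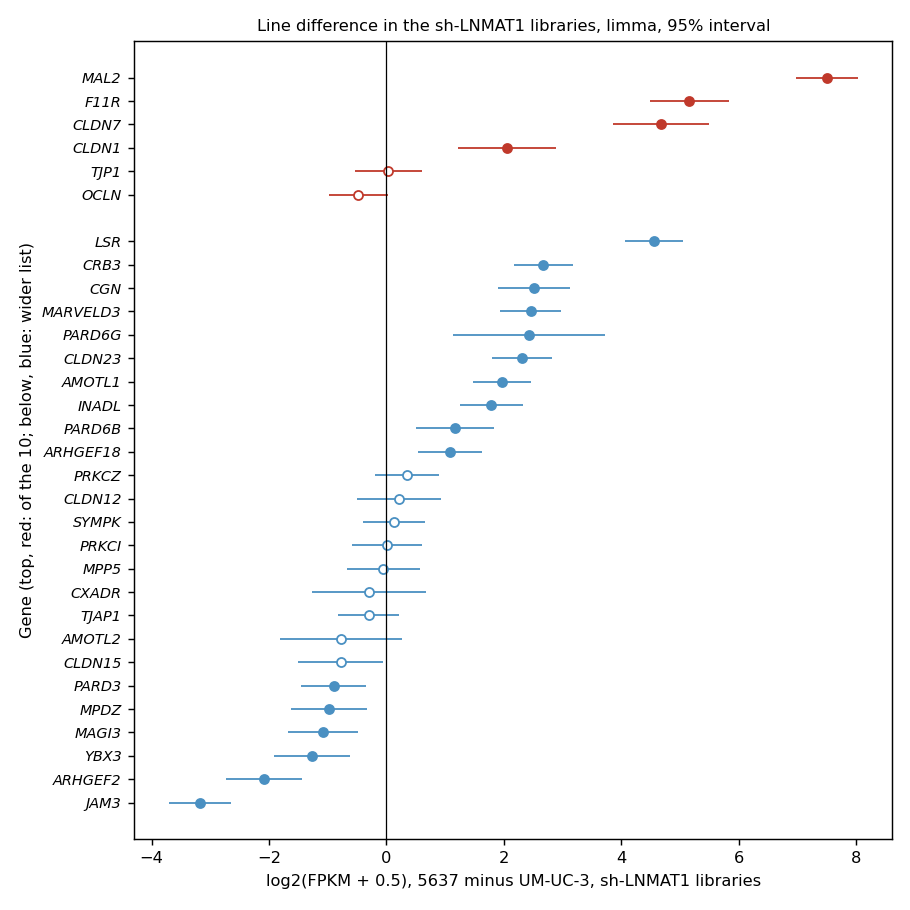
Difference of log2(FPKM + 0.5) between 5637 and UM-UC-3 in the sh-LNMAT1 libraries (horizontal axis) for the 6 kept of the 10 tight junction genes (red) and 25 of the wider list (blue), with limma 95% intervals and filled points for an adjusted p under 0.05. MAL2 lies at 7.51 and LSR at 4.55, and JAM3 lies lowest at -3.18.

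Of 20 regulators of epithelial genes, 17 were kept in the comparison of lines, of which 13 were higher in 5637 and 3 lower, beside 20.1% and 18.4% of all genes. Of the 13, all but KLF5 and SNAI2 averaged under 1 FPKM in UM-UC-3 and were kept through the 5637 libraries alone, so the count is no support. The 3 were ZEB1 and SNAI1, which repress epithelial genes through E-boxes, and KLF4. ZEB1 and SNAI1 averaged under 1 FPKM in the 5637 sh-LNMAT1 libraries. They were kept through the UM-UC-3 libraries alone, so their difference follows from the filter. ZEB1 in UM-UC-3 had 12.5 FPKM under the control hairpin, 12.7 under hairpin #1 and 8.67 under hairpin #2. On the 5637 side, the library labelled sh-NC had 12.6 FPKM, and 5637 had 0.0264 and 0.00774 under hairpins #1 and #2. GRHL2, a Grainyhead factor of epithelial junctions, had the opposite pattern, at 16.2 and 14.5 FPKM in the 5637 sh-LNMAT1 libraries and at most 0.0166 in the other 4. SNAI2, a repressor of the same family as SNAI1, was higher in 5637 by 2.50. No role of these regulators in the levels of the 10 genes was tested.

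The genes most like the mean profile of the 6 kept genes, by the root mean square distance of centred log2(FPKM + 0.5) over the 6 libraries among 11466 genes, were AP1G2, FRK, RBM47, SHROOM3 and PNPLA4, at distances of 0.061 to 0.071. AP1G2 was 4.29 and 4.42 FPKM in the 5637 sh-LNMAT1 libraries and at most 0.0504 in the other 4. The profile itself was 2.08 and 2.20 in the 5637 sh-LNMAT1 libraries and -0.93 to -1.17 in the others. MAL2, F11R and CLDN7, kept through the 5637 sh-LNMAT1 libraries, weigh most in this mean, and OCLN and TJP1 do not follow it. The genes listed as most alike were also kept through those libraries alone, so their high values there follow from the filter and the likeness is no support.

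Fragments that fit more than 1 gene can move a level. Of the distinct 50-base words in annotated transcripts of each gene, 35.8% were shared with another gene for F11R, 8.60% for OCLN, mostly with OCLNP1, and 8.25% for CLDN7, all with AC003688.1. The share was 1.80% for CLDN3, under 1% for CLDN4, TJP3 and MARVELD2, and 0 for CLDN1, TJP1 and MAL2. MAL2, with the highest level of the 10, was therefore read from sequence that no other annotated transcript holds at this word length, although MAL2-AS1 overlaps 5.89% of its exon bases on the opposite strand. The kit marks strand, but the setting used in counting is not given in the sources used here.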

How the data were processed

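RNA of 6 libraries, 1 per construct in each line, was sequenced, and samples were grouped by their labels. The authors deposited FPKM, 50869 genes in a single table, of which 1 row had no values and was left out. HISAT2 and hg38 are named in the submitters' processing notes, and the counting program and the annotation are not given in the sources used here. GENCODE 29 held 50110 of the identifiers, 47483 at the same position. Fragments were recovered as FPKM times exon length times depth, within 0.05 of a whole number, for 46443 genes. The length behind MARVELD2 was read from the steps of its own values. FPKM are not counts, so the main test was limma on log2 values.

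Levels were compared as log2(FPKM + 0.5) where the mean over the libraries compared was 1 FPKM or more, with limma 3.58.1 (lmFit, eBayes with a trend) in R 4.3.3, checked on simulated data, and with Python 3.11.15. Calls used a Benjamini-Hochberg adjusted p under 0.05 over all genes. P-values measure only the spread between these libraries. Ratios carry exact conditional 95% counting intervals, and 3 fragments was the floor.

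The members and lists were chosen with earlier results of these data known. Named were the 10 genes, the 4 largest called differences in each direction of the wider list and up to 5 per direction in each line, regulators whose reading bears on the description, and the 5 most alike genes outside all lists. A member of the wider list that met this rule is not reported here, though the counts include it. UPK1B, UPK3A and the marker genes come from the marker lists. Alternatives were pseudocounts of 0.1 and 1, other filters and thresholds, 75th-percentile scaling, limma without a trend, each hairpin alone, other sets of libraries, and each library left out. Voom on recovered fragments and FPKM on merged exons were added after seeing the data.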

Additional observations from a re-analysis of the deposited data

Results flagged for a closer look

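The knockdown change, 5637 minus UM-UC-3 on the log2(FPKM + 0.5) scale, differed between the lines by limma's interaction test for MAL2 (7.47), F11R (5.11) and CLDN7 (4.78), and each value rests on the library labelled 5637 sh-NC and on 1 control library per line. These genes were kept through the 5637 sh-LNMAT1 libraries alone, so a difference follows from the filter, and CLDN7 lost the call without the filter (limma adjusted p = 0.0566). Both hairpins had OCLN above the control in UM-UC-3 and below it in 5637, and the mean changes differed by -0.71 (limma adjusted p = 0.203). Both hairpins had TJP1 below the control in UM-UC-3 and above it in 5637, and the mean changes differed by 0.52 (limma adjusted p = 0.386). For OCLN and TJP1 the interaction did not pass the threshold.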

How the results depend on the processing

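No value changed sign where it was called. Of the counts of members, that of UM-UC-3 went from 0 to 1 with sh-LNMAT1#1 alone (CLDN1), and that of 5637 from 5 to 3 at a 4-fold threshold. Between lines, 4 members became 0 with all 6 libraries and were 3 to 5 with single libraries left out. In the pooled comparison the count moved from 0 only without UM-UC-3 sh-NC. That fit takes the change from 5637 alone and rests on the library labelled 5637 sh-NC. Of the wider list, 12 changed with knockdown, 6 under a filter of 5 FPKM and 19 at 1.5-fold; 17 differed between lines, 8 under a filter of 5 FPKM, 0 with all 6 libraries, and 5 to 18 with single libraries left out. The cause of these moves was not tested, and the share of all genes called under each setting is not given here. Of the other values of single members, 253 were counted as unchanged, 12 moved, 7 lost and 4 gained a call. For fitted values, unchanged means only that the call stayed the same, and the value itself could shrink or change sign. Without the library labelled 5637 sh-NC, the pooled value of MAL2 went from 3.72 to -0.01 and that of CLDN7 from 2.31 to -0.08. A pseudocount of 0.1 in place of 0.5 moved the mean change in 5637 of MAL2 to 9.44, CLDN7 to 6.89 and MARVELD2 to 3.95. No paired analysis was possible because the labels carry no replicate numbers and a construct has a single library in a line. The hairpin number names a construct and not a replicate; as a covariate, which matches the libraries of the lines by construct, it left 4 members called between lines. Values of a few fragments, 0 to 3 for MAL2 and 1 to 7 for CLDN7 outside the 5637 sh-LNMAT1 libraries, set no precise fold.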
